A study of Mus musculus with 8 samples.

Results

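The genes of the 2 Polycomb repressive complexes were followed through the last steps of male germ cell development. The set held 10 genes, of 23343 in the RNA-seq tables, and was chosen by name: *Ring1*, *Rnf2*, *Bmi1*, *Phc1*, *Phc2* and *Scmh1* for Polycomb repressive complex 1 (PRC1), and *Ezh1*, *Ezh2*, *Eed* and *Suz12* for Polycomb repressive complex 2 (PRC2). Their transcripts filled 13 of 26099 rows of the tables, and rows were summed per gene. Pachytene spermatocytes (PS), in which homologous chromosomes are synapsed in meiotic prophase, were compared with round spermatids (RS), the haploid cells that follow meiosis. RNA was measured in adult C57BL/6 testis cells lacking both *Rnf8* and *Scml2* (dKO), with 2 libraries of PS and 2 of RS. H3K27ac, a histone mark of active promoters and enhancers, was measured by ChIP-seq in adult wild-type C57BL/6 testis cells, again with 2 libraries of PS and 2 of RS. The genotype therefore differed between the 2 assays, while strain, age and tissue were shared, and no wild-type RNA was analysed here. The methods state that cells were enriched by sedimentation. For the dKO RNA alone they add that PS and RS could come from the same mouse. The mouse of each library is not named in either assay, so p-values measure the spread between these libraries.

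PRC1 places ubiquitin on histone H2A through the RING finger proteins RING1 and RNF2, which work with 1 of 6 PCGF partners, among them BMI1. The canonical form of the complex also holds a PHC protein, a CBX protein that binds methylated H3, and the more loosely bound SCMH1. PRC2 methylates H3 on the same lysine that H3K27ac marks, through EZH1 or EZH2, and needs EED and SUZ12 to do so. In the male germ line, Polycomb proteins are known to keep somatic genes silent, and SCML2, which the dKO cells lack, is a germline partner of PRC1.

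The RNA-seq libraries held 9655405 to 12289694 reads on genes, and differences are given as log2 of RS over PS from edgeR's quasi-likelihood test over 14647 genes. A gene was called at a Benjamini-Hochberg adjusted p under 0.05 and a change of more than 1.5-fold. All 10 round spermatid markers had a higher RPKM (reads per length of transcript and depth of library) in both RS libraries, with a summed RPKM of 559 and 874 in PS and 13363 and 14183 in RS. The PS marker *Piwil1* was at 286 and 326 RPKM in PS and at 9.91 and 17.6 in RS, but 3 of the 10 pachytene markers (6 went the other way) were higher in both RS libraries. All 5 Leydig cell markers were higher in both PS libraries, with a summed RPKM of 727 and 546 against 68.0 and 42.4 in RS. Of 4 blood and macrophage markers, 3 were higher in both RS libraries, at a summed 0.739 and 0.668 RPKM in PS and 9.29 and 8.20 in RS, with *Hba-a1* at 0 throughout. The 7 Sertoli cell markers summed to 5.67 to 13.2 RPKM in the 4 libraries, with *Sox9* at 0.17 or less. Of 8 markers of spermatogonia and early meiosis, 6 were higher in both RS libraries and 1, *Id4*, in both PS libraries (26.1 and 20.4 RPKM against 2.73 and 2.53), with a summed RPKM of 77.8 and 58.5 in PS and 70.0 and 69.7 in RS. The 3 peritubular and vessel markers summed to 2.48 to 3.57 RPKM. The Leydig cell and the blood and macrophage markers moved with the stage, and their part in the results on RNA below was not tested. Reads remained on both targeted genes, with 93 and 110 reads on *Rnf8* in PS and 61 and 50 in RS, and 40 and 92 reads on *Scml2* in PS and 44 and 98 in RS. The tables do not give reads by exon, so these counts do not check the deletions.

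Between PS and RS of the dKO, *Bmi1* rose, *Ezh1* and *Rnf2* fell, and the other 7 genes differed by less than 1.5-fold and were not called. Thus 1 gene of 10 was called higher in RS and 2 were called lower, where 30.4% of all genes tested were called higher and 27.6% lower. The median log2 difference of the 10 genes was -0.17 and that of all genes 0.01, while the median size of the difference, without its sign, was 0.25 for the 10 genes and 0.88 for all genes. In 2 genes of the 10 both RS libraries had a higher RPKM than both PS libraries and in 5 a lower one. Over all genes tested the shares were 40.9% and 42.7%. In bulk cells, fewer cells of a type and less RNA per cell cannot be told apart.

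**Figure D1:**
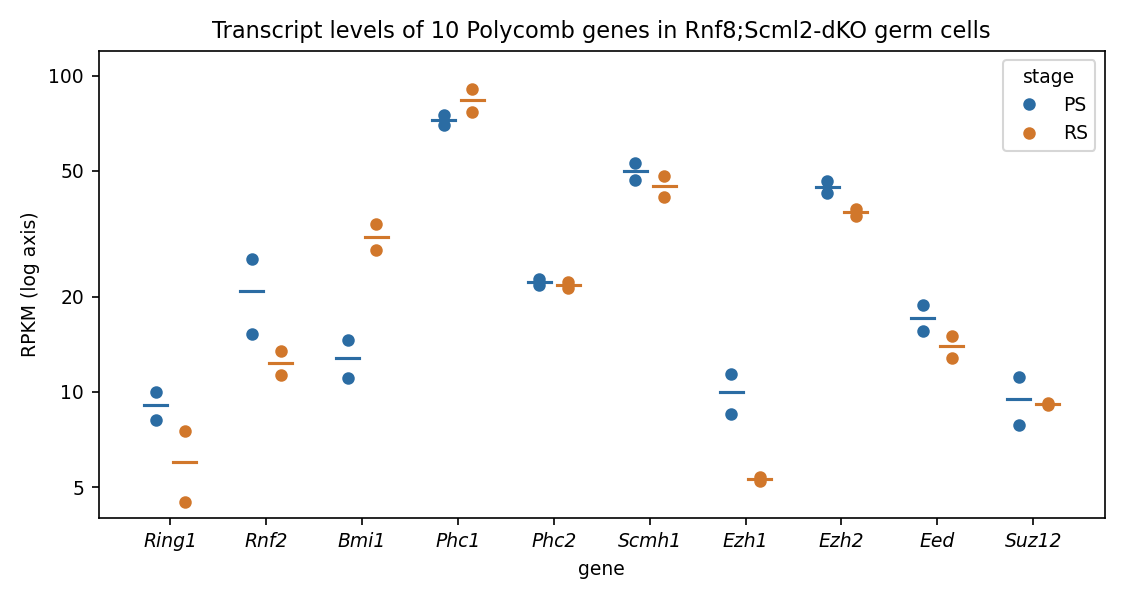
RPKM (log axis) of the 10 Polycomb genes in PS (blue) and RS (orange) of the dKO, with 1 point per library and a bar at the mean of 2 libraries. *Phc1* was highest in both stages, *Bmi1* had both RS points well above both PS points, and *Ezh1* had both RS points at about 5 RPKM, below both PS points.

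*Bmi1* (chr2:18677018-18686629, plus strand, mm10), a PCGF subunit of canonical PRC1, showed the largest difference of the 10. It was at 14.6 and 11.1 RPKM in the 2 PS libraries and at 28.1 and 33.9 in the 2 RS libraries, from 599 and 442 reads in PS and 1412 and 1436 in RS. Both RS libraries were above both PS libraries, and the log2 difference was 1.31 ± 0.17 (SE), a 2.48-fold rise (edgeR adjusted p = 0.00020). Over 11 other settings the difference ranged from 1.17 to 1.53, and each was called. *Bmi1* starts 801 bases beyond the end of *Commd3* on the same strand, and the library kit did not mark strand, but the genes do not overlap. Other genes of the set have closer neighbours, also without overlap. On the opposite strand, *M6pr* lies 53 bases from *Phc1* and *Cntnap1* 394 bases from *Ezh1*. *Mir219-1* lies 302 bases from *Ring1*.

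The 5 other PCGF genes, which encode the other partners of the RING proteins, were not called higher in RS. Over all genes tested 30.4% were called higher and 27.6% lower. *Pcgf6*, the partner in the germline-gene-silencing form of PRC1, was at 63.0 and 58.2 RPKM in PS and at about 11 in both RS libraries, and fell by 2.42 ± 0.14 on the log2 scale (adjusted p = 4.11e-06). *Pcgf5* fell by 1.76 ± 0.18 (adjusted p = 6.70e-05) and *Pcgf1* fell by 0.74 ± 0.19 (adjusted p = 0.00844), whereas *Pcgf3* (-0.43 ± 0.22) and *Pcgf2* (0.28 ± 0.24) did not pass the test. The summed RPKM of all 6 PCGF genes was 168 and 145 in PS and 74.4 and 82.3 in RS. *Bmi1* supplied 8.70% and 7.64% of that sum in PS and 37.8% and 41.2% in RS, which are shares within a library and carry no test.

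The 2 RING finger genes, which encode the catalytic subunits of PRC1, had a lower RPKM in both RS libraries than in both PS libraries, and of the 2 *Rnf2* was called and *Ring1* was not. *Rnf2* (chr1:151469406-151500823, minus strand) was at 26.4 and 15.2 RPKM in PS and at 13.5 and 11.3 in RS, so the groups did not overlap, but the PS libraries lay further apart than PS replicate 2 lay from RS. Its log2 difference was -0.70 ± 0.24 (SE, adjusted p = 0.030). The call was lost without PS replicate 1 (-0.30, adjusted p = 0.168), without RS replicate 1 (-0.75, adjusted p = 0.058) and without RS replicate 2 (-0.47, adjusted p = 0.223), and in the fit over single transcript rows (adjusted p = 0.083). Over transcript rows it was called with DESeq2 (-0.68, adjusted p = 0.049) and without PS replicate 2 (adjusted p = 0.0089). Over 11 other settings of the gene fit the adjusted p ranged from 0.00017 to 0.223. *Ring1* (chr17:34020792-34024680, minus strand) was at 8.15 and 10.0 RPKM in PS and at 4.50 and 7.55 in RS, and rested on 128 to 226 reads per library. Its difference of -0.56 ± 0.27 did not pass the test (adjusted p = 0.094), although it did without PS replicate 1 (-0.74, adjusted p = 0.025) or without RS replicate 2 (-0.87, adjusted p = 0.039). In the edgeR fit with a replicate block, *Ring1* had an adjusted p of 0.021, but its difference of -0.58 was just under the 1.5-fold limit. The ratio of *Rnf2* to *Ring1* RPKM was 3.23 in PS replicate 1 and 2.997 in RS replicate 1, and 1.52 in PS replicate 2 and 1.496 in RS replicate 2. The ratio thus varied between the replicate numbers more than between the stages.

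*Phc1*, *Phc2* and *Scmh1* encode SAM domain proteins of canonical PRC1, and none of them was called. *Phc1* (chr6:122317731-122340227, minus strand) was the most abundant of the 10 genes, at 70.0 and 75.1 RPKM in PS and 76.7 and 91.0 in RS, above 91.0% to 92.9% of the genes tested in each library. Its log2 difference was 0.24 ± 0.13 (adjusted p = 0.136). It supplied 73.8% and 76.2% of the summed RPKM of the 3 PHC genes in PS and 77.7% and 79.8% in RS, while *Phc3*, the least abundant of them, fell by 1.32 ± 0.21 on the log2 scale (adjusted p = 0.000743).

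*Phc2* (chr4:128654702-128752881, plus strand) was at 22.7 and 21.8 RPKM in PS and at 21.3 and 22.3 in RS, with overlapping groups and a log2 difference of 0.02 ± 0.13. From 92.5% to 95.8% of its reads were given to the short transcript NM_001195083, which starts at position 128727571, and the 2 longer transcripts received identical counts of 14 to 29 reads per library. *Scmh1* (chr4:120405281-120530199, plus strand), a relative of the deleted *Scml2*, was at 46.7 and 53.0 RPKM in PS and at 41.4 and 48.3 in RS. Its groups overlapped too, and its log2 difference was -0.11 ± 0.14 (adjusted p = 0.513). The sign of this difference turned without PS replicate 2 (0.03) or without RS replicate 1 (0.09).

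The split of *Phc1* reads between its 2 rows was unstable. The row of the upstream start, NM_001271579, was given 0 and 197 reads in PS and 40 and 1481 in RS, which is 0% to 36.2% of the gene's reads. The authors had divided reads between isoforms by expectation-maximization. RS replicate 2 stood apart in this row, and the difference between stages was not called (log2 difference 2.88 ± 2.04, adjusted p = 0.277), and turned to -1.497 without that library. The gene sum is the value used for *Phc1*.

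Of the PRC2 genes, *Ezh1* fell, and *Ezh2*, *Eed* and *Suz12* did not pass the test. *Ezh1* (chr11:101191115-101226450, minus strand), the methyltransferase that prevails in many non-dividing cells, was at 11.4 and 8.52 RPKM in PS and at 5.25 and 5.38 in RS. Both RS libraries were below both PS libraries, and the log2 difference was -0.86 ± 0.18 (SE), a level 1.82-fold higher in PS (adjusted p = 0.0030). It was called under each of 11 other settings, from -1.01 to -0.68.

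*Ezh2* (chr6:47530274-47595030, minus strand), the methyltransferase most abundant in dividing cells, was at 46.5 and 42.6 RPKM in PS and at 36.1 and 38.0 in RS. The groups did not overlap, but the log2 difference of -0.22 ± 0.12 did not pass the test (adjusted p = 0.142). *Ezh2* exceeded *Ezh1* in every library, by a ratio of 4.07 and 4.99 in PS and of 6.88 and 7.06 in RS. The ratio was higher in both RS libraries, and this was not tested.

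*Eed* (chr7:89954654-89980976, minus strand), which reads the methyl mark and stimulates the enzyme, was at 18.8 and 15.6 RPKM in PS and at 12.8 and 15.1 in RS (log2 difference -0.26 ± 0.17, adjusted p = 0.208). *Suz12* (chr11:79993106-80034123, plus strand), the scaffold of the complex, was at 11.1 and 7.88 RPKM in PS and at 9.07 and 9.26 in RS, where the RS values lay inside the PS range (-0.01 ± 0.18, adjusted p = 0.980).

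Levels were compared between genes on the RPKM scale. In PS the order was *Phc1*, *Scmh1*, *Ezh2*, *Phc2*, *Rnf2*, *Eed*, *Bmi1*, *Ezh1*, *Suz12* and *Ring1*, from a mean of 72.6 to 9.08 RPKM. *Phc1*, *Scmh1* and *Ezh2* each stood apart from the next gene, whereas the ranges of *Phc2*, *Rnf2* and *Eed*, and those of the last 4 genes, overlapped from neighbour to neighbour. In RS the first 3 places were unchanged, *Bmi1* held the fourth place in place of the seventh, and *Ezh1* was last with a mean of 5.32 RPKM, not separated from *Ring1* at 6.03.

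A wider list of 53 Polycomb-related genes, without the 10 above, was read in the same test. The tables held 52 of them, the targeted *Scml2* included, and 50 could be tested, of which 14 were called higher in RS and 22 lower, with a median log2 difference of -0.27. Over all genes tested 30.4% were called higher and 27.6% lower. DESeq2 called 11 and 21, and without RS replicate 1 the counts were 7 and 19.

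**Figure D2:**
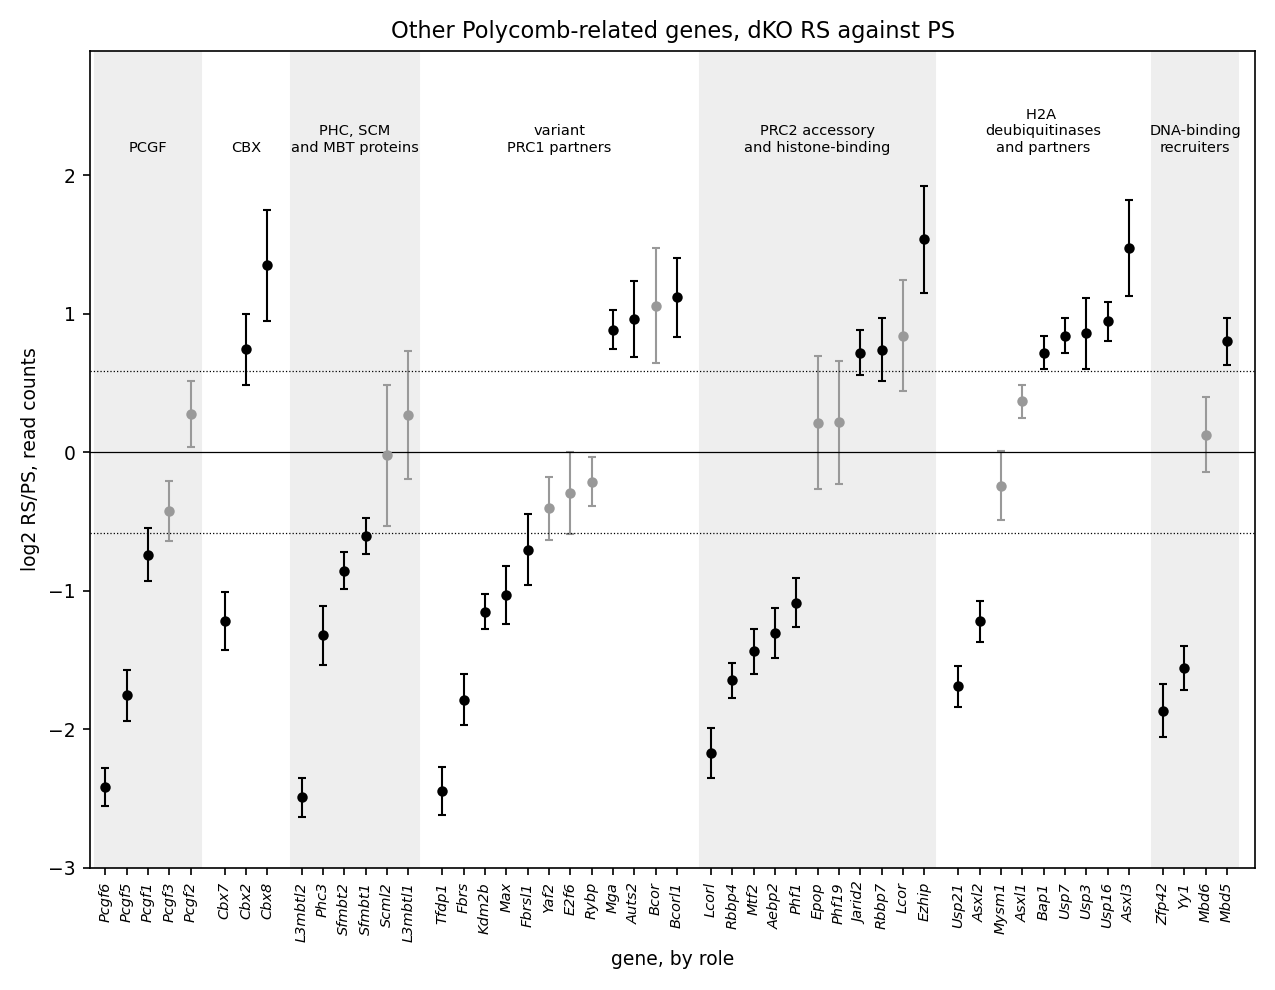
Log2 difference between RS and PS of the dKO (± SE from edgeR) for the 50 tested genes of the wider Polycomb list, grouped by role. Black points were called and grey ones were not, dotted lines mark 1.5-fold, and called genes stand on both sides of 0 in every group but PCGF and the PHC, SCM and MBT proteins.

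The largest falls in the wider list were those of *L3mbtl2*, *Tfdp1* and *Pcgf6*. *L3mbtl2*, an MBT protein of the PCGF6 complex, was at 41.3 and 42.4 RPKM in PS and 6.80 and 7.69 in RS, and fell by 2.49 ± 0.14 on the log2 scale (adjusted p = 4.11e-06). *Tfdp1*, the DP partner of E2F factors, fell by 2.45 ± 0.17 (adjusted p = 8.08e-06), and in the same class *Fbrs*, *Kdm2b*, *Max* and *Fbrsl1* fell while *Mga*, *Auts2* and *Bcorl1* rose, which left 4 of 12 variant PRC1 partners uncalled. *Mga*, the MAX-binding scaffold of the PCGF6 complex, rose by 0.88 ± 0.14 (adjusted p = 0.000682). Both *Auts2* and *Bcorl1* stayed at 1.01 RPKM or less in every library. Among the 6 tested PHC, SCM and MBT genes, *Sfmbt2* and *Sfmbt1* fell besides *L3mbtl2* and *Phc3*. For both classes the shares over all genes tested were 30.4% called higher, 27.6% lower and 58% in either direction.

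The 3 CBX genes read here, whose products bind the PRC2 mark in canonical PRC1, divided by direction, where 30.4% of all genes tested were called higher and 27.6% lower. *Cbx7* fell from 21.5 and 32.5 RPKM in PS to 10.9 and 11.7 in RS (-1.22 ± 0.21, adjusted p = 0.00114). *Cbx8* (1.35 ± 0.40, adjusted p = 0.017) and *Cbx2* (0.74 ± 0.26, adjusted p = 0.032) rose, but stayed at 3.23 RPKM or less in every library.

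Of 11 accessory and histone-binding PRC2 genes, 5 fell and 3 rose, where 27.6% of all genes tested were called lower and 30.4% higher. *Rbbp4*, a histone-binding subunit of PRC2, was at 81.4 and 75.0 RPKM in PS and 22.6 and 26.1 in RS (-1.65 ± 0.13, adjusted p = 1.24e-05). Its X-linked paralogue *Rbbp7* was at 17.4 and 10.1 RPKM in PS and 23.1 and 21.5 in RS (0.74 ± 0.23, adjusted p = 0.020). *Lcorl* showed the largest fall of this class (-2.17 ± 0.18, adjusted p = 1.94e-05), and *Mtf2*, *Aebp2* and *Phf1* fell too. *Jarid2*, which helps to recruit PRC2, rose by 0.72 ± 0.16 (adjusted p = 0.00456), and *Ezhip*, a germline inhibitor of PRC2 listed as AU022751, rose by 1.54 ± 0.39 (adjusted p = 0.00773) at 1.77 RPKM or less.

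Enzymes that remove ubiquitin from H2A and their partners were called in 7 of 9 cases, where 58% of all genes tested were called in either direction. *Usp7* (0.84 ± 0.13), *Usp16* (0.94 ± 0.14), *Usp3* (0.86 ± 0.26), *Bap1* (0.72 ± 0.12) and *Asxl3* (1.47 ± 0.34) rose. *Asxl3* rested on 14 to 63 reads per library, at 0.385 RPKM or less. *Usp21* (-1.69 ± 0.15) and *Asxl2* (-1.22 ± 0.15) fell. *Usp7*, a deubiquitinase that binds PRC1, was at 59.4 and 52.2 RPKM in PS and at 104 and 90.7 in RS (adjusted p = 0.000499). Of the 4 genes classed in the list as DNA-binding recruiters, *Zfp42* (-1.87 ± 0.19) and *Yy1* (-1.56 ± 0.16) fell, *Mbd5* (0.80 ± 0.17) rose and *Mbd6* was not called. Over all genes tested 27.6% were called lower and 30.4% higher. The class is a label of the list, and binding to DNA was not measured.

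The promoters of the 10 genes were then examined in wild-type cells. Shown here are the 250 bases upstream of the RefSeq start site for the 3 genes whose RNA was called (*Bmi1*, *Ezh1* and *Rnf2*), for *Ezh2* as the paralogue of *Ezh1*, and for the 2 whose promoter H3K27ac was called (*Phc1* and *Scmh1*). They are written 5′ to 3′ on the strand of the gene from the GRCm38.p6 table of RefSeq promoters, with capitals for a match to an E-box (*Bmi1*) or an NRF1 motif (*Ezh1* and *Ezh2*). The positions are chr2:18676768-18677017 (plus), chr11:101226464-101226713 (minus), chr6:47595031-47595280 (minus), chr1:151500992-151501241 (minus), chr6:122340228-122340477 (minus) and chr4:120405098-120405347 (plus), in the order printed.
Bmi1: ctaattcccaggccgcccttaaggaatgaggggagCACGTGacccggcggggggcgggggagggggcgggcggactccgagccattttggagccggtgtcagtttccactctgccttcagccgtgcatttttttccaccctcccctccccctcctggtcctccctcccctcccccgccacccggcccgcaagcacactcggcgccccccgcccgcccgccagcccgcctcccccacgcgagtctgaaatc
Ezh1: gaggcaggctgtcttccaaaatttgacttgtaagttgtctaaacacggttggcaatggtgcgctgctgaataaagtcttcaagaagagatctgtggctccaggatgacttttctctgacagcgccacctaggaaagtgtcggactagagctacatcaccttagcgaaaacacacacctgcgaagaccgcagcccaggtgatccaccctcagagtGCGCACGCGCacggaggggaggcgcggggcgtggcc
Ezh2: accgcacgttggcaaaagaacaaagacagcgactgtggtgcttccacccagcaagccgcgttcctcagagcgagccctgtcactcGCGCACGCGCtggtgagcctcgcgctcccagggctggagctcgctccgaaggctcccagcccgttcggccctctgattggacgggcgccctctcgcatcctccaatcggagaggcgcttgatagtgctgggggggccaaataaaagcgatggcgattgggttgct
Rnf2: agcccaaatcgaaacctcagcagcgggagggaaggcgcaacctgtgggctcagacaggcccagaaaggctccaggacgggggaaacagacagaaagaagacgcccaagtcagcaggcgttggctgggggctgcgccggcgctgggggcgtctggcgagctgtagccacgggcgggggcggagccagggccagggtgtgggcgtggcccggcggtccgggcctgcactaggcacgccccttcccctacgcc
Phc1: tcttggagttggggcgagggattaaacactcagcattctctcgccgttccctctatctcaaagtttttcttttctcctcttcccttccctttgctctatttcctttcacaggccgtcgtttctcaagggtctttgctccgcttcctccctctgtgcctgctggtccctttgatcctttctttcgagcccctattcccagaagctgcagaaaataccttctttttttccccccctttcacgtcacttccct
Scmh1: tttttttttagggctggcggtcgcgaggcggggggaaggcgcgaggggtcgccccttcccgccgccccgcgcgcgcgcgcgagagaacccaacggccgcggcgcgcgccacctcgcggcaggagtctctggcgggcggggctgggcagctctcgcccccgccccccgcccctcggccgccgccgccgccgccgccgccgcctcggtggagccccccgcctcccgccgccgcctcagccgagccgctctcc
The RefSeq start lay 13 bases upstream of the start in the gene tables for *Ezh1*, 168 bases upstream for *Rnf2* and 67 bases downstream for *Scmh1*, and matched for the others printed. For *Phc1* it matched the upstream start, at position 122340227.

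The table gave 13 windows of 300 bases for the 10 genes, from 250 bases before the start to 50 after it. Their median G and C content was 64.3% and their median number of CpG sites 23, where the medians of all 32851 windows were 52.7% and 7. *Scmh1* had the richest window, with 81.3% G and C and 54 CpG sites, and a second *Scmh1* window, at a start not in the gene tables, had the poorest, with 32.7% and 0. The window of *Phc1* held 9 CpG sites at 52.0% G and C. It was that of the upstream start, whose row was given 0% to 36.2% of the gene's reads. No window was given for the other *Phc1* start, at position 122339657. Both strands were searched for exact matches to 6 motifs. The NRF1 motif was found in 2 windows, those of the paralogues *Ezh1* and *Ezh2*, and in 4.60% of all windows. The E-box CACGTG was found in *Bmi1* and in 1 of 3 windows of *Phc2*, and in 7.15% of all windows. The CRE TGACGTCA (1.79% of all windows), the MYB motif AACNGTT (4.45%), the TATA box TATAAA (13.6%) and the palindrome bound by BANP (0.466%) were not found in these windows. The motifs printed do not overlap one another in the windows shown.

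All 10 genes had an H3K27ac peak with its summit within 2 kb of a start site in each of the 4 libraries, as had 48.6% of 23343 genes. Values are the fold enrichment of the strongest such summit over the background of its library, as deposited. The stages were compared with limma on log2(fold enrichment + 1), over 13643 promoters, after each library was centred on the promoters with a peak in all 4 libraries. Before centring, the median over all promoters was 0.43 lower in RS on the log2 scale. The background was between 0.723 and 1.46 fragments and the summits used here rested on 8 to 97 fragments, while read totals are unknown.

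*Phc1* was called higher in RS and *Scmh1* lower, where 13.9% of promoters were called higher and 12.7% lower. The other 8 did not meet both thresholds. The split of all calls was 1900 higher and 1732 lower after centring and 714 (5.23%) higher and 2169 (15.9%) lower as deposited. Without centring *Phc1* was no longer called, *Suz12* was called lower besides *Scmh1*, and the differences of *Rnf2*, *Bmi1*, *Phc2* and *Ezh2* turned negative.

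**Figure D3:**
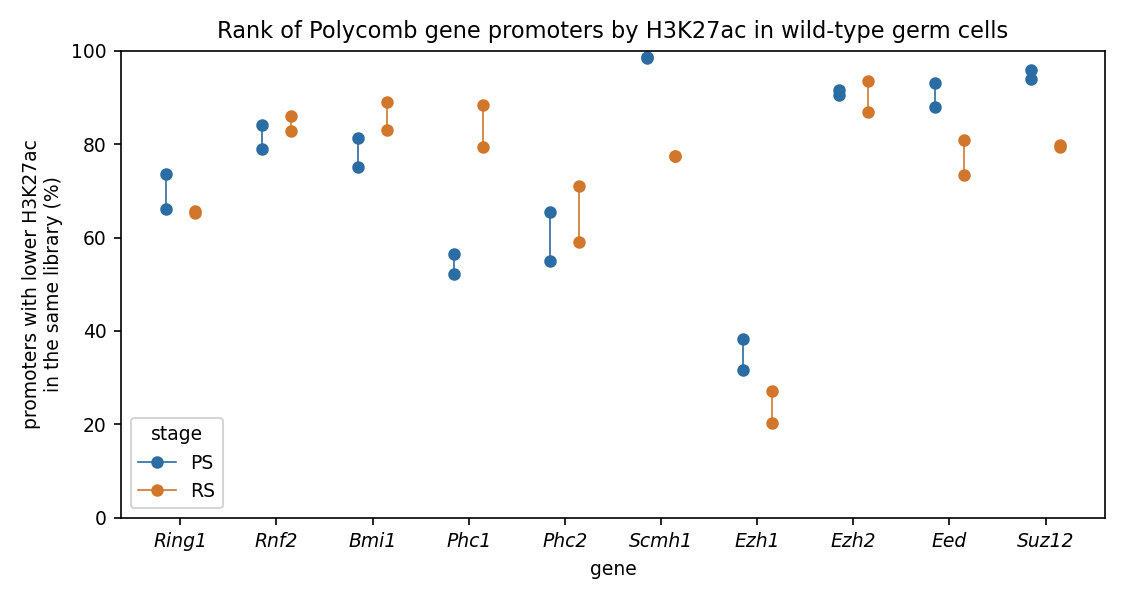
Share of the 13643 tested promoters that had lower H3K27ac than each Polycomb gene in the same library, in wild-type PS (blue) and RS (orange), with 1 point per library. *Scmh1* stood at 98.5% and 98.6% in PS and at 77.5% in both RS libraries, *Phc1* stood higher in both RS libraries, and *Ezh1* was the lowest of the 10 in each library.

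The *Scmh1* promoter had the strongest H3K27ac of the 10 in PS, with a fold enrichment of 40.3 and 44.9, and 20.7 and 16.3 in RS. Both RS libraries were below both PS libraries, and the centred log2 difference was -0.76 ± 0.10 (SE, limma adjusted p = 0.0033), a 1.69-fold higher level in PS. As deposited the difference was -1.17 ± 0.18 (adjusted p = 0.021). The peak was 3357 and 3418 bases long in PS and 2146 and 2190 in RS. By rank within a library, given as a description from lists of 41095 to 74919 peaks in which an absent peak counts as 0, *Scmh1* exceeded 98.5% and 98.6% of promoters in PS and 77.5% in both RS libraries.

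At the *Phc1* promoter, fold enrichment was 16.9 and 17.0 in PS and 25.6 and 16.8 in RS, so the deposited values overlapped. After centring both RS libraries were above both PS libraries, and the log2 difference was 0.69 ± 0.12 (adjusted p = 0.0083), a 1.62-fold rise. Without RS replicate 1 it was 0.58 (adjusted p = 0.030), just under the 1.5-fold limit, and as deposited it was 0.28 ± 0.24 (adjusted p = 0.402). *Phc1* exceeded 56.4% and 52.3% of promoters in PS and 88.4% and 79.5% in RS. Its promoter peak was 1876 and 2737 bases long in PS and 3667 and 3326 in RS.

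The other PRC1 promoters differed less. Fold enrichment at *Ring1* was 19.8 and 24.1 in PS and 17.1 and 13.4 in RS (centred log2 difference -0.09 ± 0.11), and *Mir219-1* and *H2-Ke6* lie within 2 kb of it. *Rnf2* had 26.8 and 26.3 in PS and 22.8 and 19.2 in RS (0.08 ± 0.10). *Bmi1* had 25.5 and 24.7 in PS and 26.0 and 18.0 in RS (0.21 ± 0.11, adjusted p = 0.196). In RS replicate 1 the *Bmi1* peak was 7071 bases long and reached back to *Commd3*, and with a window of 5 kb the difference was 0.57 (adjusted p = 0.017).

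*Phc2* carried H3K27ac at 2 of its 3 start sites. The start of the short transcript, which held most of the reads in the dKO, was enriched 16.5- and 21.4-fold in PS and 15.5- and 14.5-fold in RS (0.11 ± 0.15). The first start, at position 128654702, had 13.6 and 13.7 in PS and 8.54 and 5.22 in RS, and no peak summit lay within 2 kb of the middle start, at 128688738, in these libraries.

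Before centring, 8 of the 10 promoters had a lower fold enrichment in both RS libraries than in both PS libraries, all but *Bmi1* and *Phc1*. Over the 13643 promoters the share was 58%. The 4 PRC2 promoters were among the 8. Fold enrichment at *Suz12* was 35.4 and 36.2 in PS and 21.6 and 16.8 in RS, and its centred difference of -0.46 ± 0.10 had an adjusted p of 0.015 but was smaller than 1.5-fold. *Eed* had 32.5 and 31.2 in PS and 22.0 and 15.1 in RS (-0.36 ± 0.11, adjusted p = 0.055). *Ezh2* had 30.5 and 34.0 in PS and 29.3 and 19.7 in RS (0.01 ± 0.11).

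*Ezh1* had the weakest promoter peak of the 10 genes, at 11.5 and 10.4 in PS and 7.73 and 5.22 in RS, where the last value rested on 8 fragments. Its groups did not overlap as deposited, and its centred difference was -0.28 ± 0.20 (adjusted p = 0.313). With peaks of −log10 q of at least 5 the RS replicate 2 peak, at 4.89, counted as absent, and the difference was -1.62 (adjusted p = 0.249). It exceeded 38.3% and 31.7% of promoters in PS and 27.2% and 20.3% in RS.

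**Figure D4:**
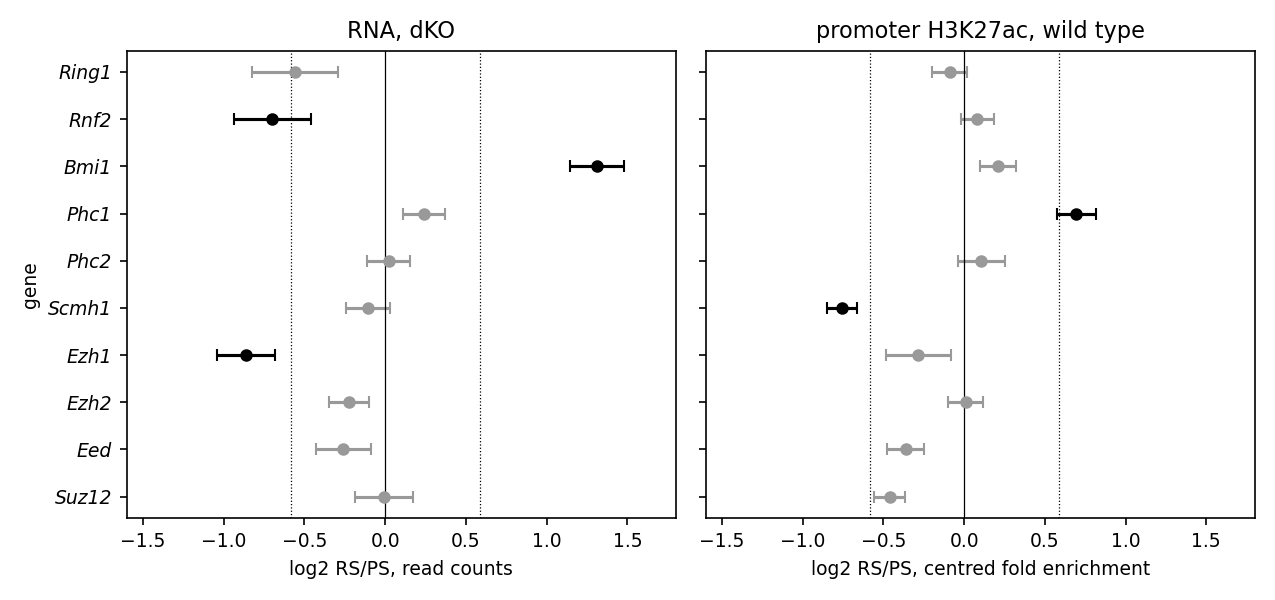
Log2 difference between RS and PS (± SE) of RNA in the dKO (left, edgeR) and of centred promoter H3K27ac in wild type (right, limma) for the 10 genes. Black points were called, and dotted lines mark 1.5-fold.

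The called genes are set side by side here, with the genotype differing between the assays. Over all features, 58% of genes were called in RNA, and 13.9% of promoters were called higher and 12.7% lower. No gene of the set was called in both assays. The share of all genes called in both was not computed, so this is no result about the set. *Bmi1* had a log2 difference of 1.31 in RNA and 0.21 in promoter H3K27ac, *Ezh1* of -0.86 and -0.28, and *Rnf2* of -0.70 and 0.08. *Scmh1* had -0.11 in RNA and -0.76 in H3K27ac, and *Phc1* 0.24 and 0.69. Across the 10 genes the 2 differences had a Pearson correlation of 0.34 and a Spearman correlation of 0.44, as a description over genes that share the same libraries.

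Beyond the promoters, the peak lists placed 35 and 30 peaks of PS and 44 and 28 peaks of RS at the 10 genes, counting peaks assigned to them or within 2 kb of a start. Regions with a peak in both replicates of a stage numbered 23 in PS, of which 19 overlapped an RS region by at least 1 base and 4 did not, and 3 of 19 RS regions overlapped none in PS. Regions without overlap were thus 17.4% of the PS regions and 15.8% of the RS regions at these genes, and 32.7% of 28071 PS regions and 39.4% of 27249 RS regions over all peaks. The difference between these shares was not tested. Of the 4, 3 lay at *Phc2* and 1 at *Ezh1*, and of the 3, 2 lay at *Rnf2* and 1 at *Phc1*. With 1 of the 4 libraries left out at a time, a peak in the remaining library of that stage was enough to count. Under this looser rule PS regions without overlap numbered 2 to 13 and RS regions 2 to 25. These counts cannot tell the part of a library from that of the rule. They were highest without PS replicate 2 (13) and without RS replicate 2 (25).

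*Rnf2* held the most peaks, with 8 in each PS library and 11 and 8 in RS, and it was singled out after its values were seen. In the 3′ part of the gene, RS replicate 1 had a peak at chr1:151472475-151477007 with a fold enrichment of 14.2, and RS replicate 2 one at chr1:151473762-151476371 with 11.6. The strongest PS peaks there had 6.58 and 5.48. Upstream of the gene, with the summit at -16919 bases from the start, RS replicate 1 had a peak with a fold enrichment of 13.0 (chr1:151516904-151519289), and the strongest there was 7.55 in RS replicate 2, 4.94 in PS replicate 1 and 5.48 in PS replicate 2. At both places each RS library was above each PS library, in deposited values and without a test.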

How the data were processed

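Wild-type PS and RS profiled for H3K27ac (ChIPmentation) and dKO PS and RS profiled by RNA-seq were analysed, with 2 libraries each, grouped by the labels. The RNA-seq used cDNA amplified from purified total RNA, with no strand mark. The 10 genes, the wider list and the marker lists were chosen with earlier results of these data known.

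The authors mapped the ChIP-seq data with Bowtie and the RNA-seq data with STAR, both to mm10, and ran MACS2 on each ChIP library. The submitters' processing notes name Bowtie 1.1.1, MACS2 2.1.0.20140616 and STAR 2.4.2a. The deposited peak lists give the pileup signal, the fold enrichment ratio and, for each summit, −log10 of its p and q, with 1 background constant (0.723 to 1.46 fragments) and 41095 to 74919 peaks in a library. The authors deposited estimated counts per RefSeq transcript, in whole numbers, from unique alignments split between isoforms by expectation-maximization, and RPKM normalized for length and library size. Genes with near-identical copies elsewhere lose reads under this rule.

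Rows were summed per gene, and genes reaching 10 counts in 2 or more libraries were tested with edgeR 4.0.16 (quasi-likelihood, TMM). Its standard error was taken as the size of the difference over the square root of F. Promoters with a peak in at least 2 libraries were tested with limma 3.58.1 (trend) on log2(fold enrichment + 1), 0 standing for no peak. This stood in for MAnorm, which needs reads. With 2 libraries a group, no exact permutation test of 1 value can pass 0.05, so none is given. Named from the wider list were the 5 largest called changes in each direction and genes of role classes counted in 4 or fewer, and *Usp7*, *Usp16*, *Usp3*, *Bap1* and the other genes completing a count of 5 were named after their values were seen.

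The fits were checked on simulated data in which few genes changed and no peak was absent. That check does not cover changes as broad as those found here, or promoters where 0 stands for no peak. Alternatives covered DESeq2 1.42.0, scaling, filters, pseudocounts of 1 and 0.1 on RPKM, windows of 1 and 5 kb, peak thresholds, overlap, a replicate block and leaving out each library. A gene of the wider list is not reported here. Protein sequences were not used here. Software was R 4.3.3 and Python 3.11.15 (pandas 2.3.3, numpy 2.4.6, matplotlib 3.10.9, scipy 1.17.1).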

Additional observations from a re-analysis of the deposited data

How the results depend on the processing

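With each library left out in turn, the Polycomb genes of the 10 called lower in RNA numbered 1 to 2, the wider list gave 7 to 16 genes higher in RS, promoters called lower 1291 to 2877 and Polycomb promoters called higher 0 to 1. PS regions without RS overlap numbered 2 to 13, RS regions without PS overlap 2 to 25 and PS regions kept in RS 19 to 23. For these regions a peak in the remaining library of that stage was enough, a looser rule than in the main count. RNA differences that changed sign had ranges of -0.23 to 0.091 (*Scmh1*), -0.19 to 0.22 (*Suz12*) and -1.497 to 12.7 (the upstream *Phc1* row), and promoter H3K27ac ranges of -0.042 to 0.24 (*Phc2*) and -0.090 to 0.091 (*Ezh2*).

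The replicate numbers were not shown to pair libraries, and no source ties a number to a mouse. The difference between replicates in PS and that in RS correlated at 0.23 over 14647 genes for RNA. For H3K27ac the correlation was 0.002 over 13643 promoters. With only 2 pairs in each assay, these values cannot settle the pairing. With the replicate block, genes called higher and lower were 4589 and 4134, promoters 1756 and 1437, *Suz12* RNA differed by 0.0084, and PS and RS regions without overlap averaged 8.5 and 15.5 over same-numbered libraries. The block called the *Rnf2* row (-0.65, adjusted p = 0.037) and the upstream *Phc1* row (3.18, adjusted p = 0.0099) and changed no call of the 10 genes in the gene or promoter fits.

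As deposited, without centring, 714 promoters were called higher, 0 of the 10 Polycomb promoters higher and 2 lower, and the differences of *Rnf2* (-0.33), *Bmi1* (-0.20), *Phc2* (-0.31) and *Ezh2* (-0.40) reversed. Differences near 0 also changed sign: *Suz12* RNA with DESeq2 (0.0065) and median-of-ratios scaling (0.0063), *Phc2* RNA with library totals (-0.022) and limma on RPKM plus 1 (-0.030) or plus 0.1 (-0.031), and *Ezh2* H3K27ac with 5 kb (-0.0091) and with −log10 q of at least 5 (-0.0040). A 50% reciprocal overlap gave 11 kept, 12 PS and 8 RS regions, a peak in either replicate 12 PS and 24 RS regions without overlap, and −log10 q of at least 5 gave 12 kept. The causes were not tested. *Bmi1* and *Ezh1* RNA and *Scmh1* H3K27ac stayed called, in the same direction, under every alternative run in their fits. Low reads limit *Ring1*, and few fragments limit *Ezh1* H3K27ac.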
